A study of Mus musculus with 20 samples.

Results

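The CCAAT/enhancer-binding proteins (C/EBPs) were followed through the adult mouse hippocampus after gestational exposure to nano-sized particulate matter (nPM) of urban air pollution. The 5 genes were selected by symbol from the 48709 genes counted: Cebpa, Cebpb, Cebpd, Cebpg and Cebpz. All 5 passed the filter on low counts, as did 19797 genes in all. Cebpd was picked for its rise in nPM samples, so its nPM values are given as a description, with no test. Cebpa, Cebpb, Cebpg and Cebpz were included by name, and their nPM values were tested.

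RNA-seq was done on the right hippocampus of 20 C57BL/6 offspring (C57BL/6J in the study's methods), with 4 groups of 5 mice formed by sex and exposure. Dams inhaled nPM from gestational day 2 until birth, in sessions of 5 h held 3 times weekly, and dams of controls inhaled filtered air in parallel. The labels give the concentration as 300 mg/m3, where the study's methods give μg. Offspring were not exposed after birth, and brains had been perfused with saline. The ages were 17.71 to 18.29 weeks in females and 18.57 to 19.14 weeks in males, with no overlap, so sex and age cannot be told apart in any comparison of males with females. The methods describe injections of the thymidine analog EdU in male offspring and also state that all animals received it, and the labels do not give it per mouse. The study took its adult offspring from 5 litters per exposure group, so mice of the same exposure, sexes combined, included littermates. The labels do not tie mice to litters, and the fits treated mice as independent. The p-values therefore measure the spread between these samples and not between exposed dams.

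C/EBPs are transcription factors of the basic leucine zipper class. They pair through the zipper and bind DNA through the basic region, as homodimers or heterodimers. In the brain they are best known for turning inflammatory and activity-dependent signals into transcription: Cebpd and Cebpb are induced by cytokines, in part through STAT3, and act in astrocytes and microglia. Cebpa drives myeloid and fat cell differentiation. Cebpg lacks a strong activation domain and partners with the other members and with Atf4. Cebpz shares the name, but is a nucleolar protein of large ribosomal subunit assembly and not a basic leucine zipper protein.

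The basic region and the start of the zipper hold the longest coding runs that Cebpa, Cebpb and Cebpd share. They are shown because close copies could share reads, and Cebpz, which has neither, is not shown. The stretches below are 120 coding bases each, from Gencode transcripts on GRCm38 (mm10), read 5′ to 3′ on the coding strand. Capitals mark the longest run of coding bases that Cebpa or Cebpb shares with Cebpd, and in Cebpd the run shared with Cebpb. In Cebpa an equally long run follows the marked run after a single mismatch and is not marked. It lies within the stretch marked in Cebpb and Cebpd. Cebpg has none marked.
Cebpd, chr16:15887922-15888041, plus strand: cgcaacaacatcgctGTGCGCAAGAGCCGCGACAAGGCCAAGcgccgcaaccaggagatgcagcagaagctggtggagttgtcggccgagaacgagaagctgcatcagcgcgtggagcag
Cebpb, chr2:167689712-167689831, plus strand: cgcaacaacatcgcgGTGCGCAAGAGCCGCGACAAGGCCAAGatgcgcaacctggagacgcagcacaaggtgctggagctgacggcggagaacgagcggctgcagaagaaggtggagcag
Cebpa, chr7:35120292-35120411, plus strand: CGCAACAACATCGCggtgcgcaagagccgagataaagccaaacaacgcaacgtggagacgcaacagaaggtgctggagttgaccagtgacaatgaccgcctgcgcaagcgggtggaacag
Cebpg, chr7:35050507-35050626, minus strand: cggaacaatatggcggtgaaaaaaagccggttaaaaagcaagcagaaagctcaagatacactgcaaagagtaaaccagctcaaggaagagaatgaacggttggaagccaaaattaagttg

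Over these 120 bases, Cebpb matched Cebpd at 84.2%, Cebpa at 75.8% and Cebpg at 49.2%. Cebpa and Cebpb matched each other at 80%. The longest run shared by 2 members was 29 bases, between Cebpa and Cebpb, followed by 27 bases between Cebpb and Cebpd and 14 between Cebpa and Cebpd. Every other pair shared at most 11 bases in coding sequence. The read length, the strand setting and the treatment of reads with several alignments are not given in the sources used here.

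Cebpa, Cebpb and Cebpd are single-exon genes, Cebpg has 2 exons and Cebpz has 16. Cebpd lies at chr16:15887286-15891031 on the plus strand, Cebpa at chr7:35119293-35121928 on the plus strand, Cebpb at chr2:167688915-167690418 on the plus strand, Cebpg at chr7:35046422-35056573 on the minus strand and Cebpz at chr17:78919006-78937070 on the minus strand (mm10). Cebpd shares 1805 bases with Spidr on the opposite strand, Cebpb shares 908 with Tmem189, and Cebpz shares 1301 with Cebpzos. Cebpg shares 1140 with Gm44836 and 617 with Gm45094, both on the same strand. Those 2 genes had 4 to 23 and 10 to 30 counts per library. All these overlaps are of gene spans, with introns included. Without a known strand setting, it is not known how reads from overlaps on opposite strands were counted. Spidr, whose counts ran from 151 to 328, had a log2 fold change of 0.04 for nPM (n = 10 mice per exposure, p = 0.646, limma-voom).

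The libraries held between 19092067 and 38663408 counts on genes. Markers of hippocampal neurons were present in all libraries (11 of 11 past the filter, summed level 3320 to 4840 CPM, counts scaled to the library total). Markers of choroid plexus epithelium, a tissue beside the hippocampus, varied far more, from 247 to 14000 CPM summed over 10 genes. They passed 1000 CPM in 0 of 5 control females and 2 of 5 nPM females, and in 3 of 5 males of either exposure. The first component of the variation within groups held 25.7% of it and had a correlation of 0.92 in size with the choroid plexus markers.

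Cebpz and Cebpg were by far the most abundant members. Levels were compared between genes as RPKM, the read count scaled to gene length and library depth. Cebpz averaged 12.36 RPKM (SD 1.17, n = 20), Cebpg 7.288 (SD 0.715), Cebpa 2.433 (SD 0.449), Cebpd 1.679 (SD 0.385) and Cebpb 1.096 (SD 0.219). Cebpz was above Cebpg, and Cebpg above the other 3 members, in 20 of 20 samples. Cebpa was above Cebpd in 18 of 20 samples, and the exceptions were 1 nPM female and 1 nPM male. The median ratio of Cebpa to Cebpd was 1.51, with a range from 0.989 to 2.35, so these neighbors in the order were not separated in every mouse. Cebpb was below Cebpd in 20 of 20 samples. Of the summed RPKM of the 5 members, Cebpz held a median of 49.5%, Cebpg 29.4%, Cebpa 9.92%, Cebpd 6.58% and Cebpb 4.49%. Cebpe, the granulocyte member of the family and not among the genes selected, had 0 or 1 count in each library. A count of 0 allows up to 3 counts, for counting error only.

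**Figure D1:**
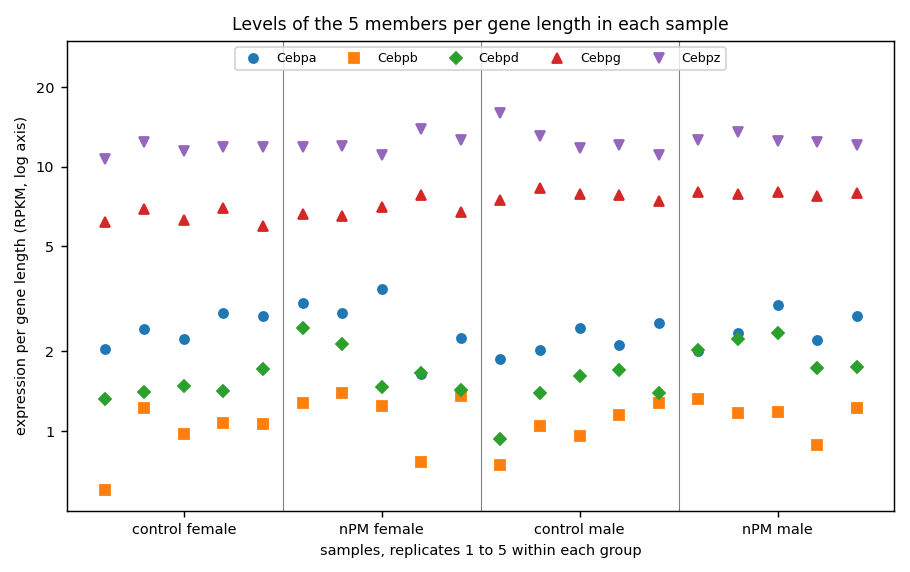
RPKM (log axis) of the 5 members in each of 20 hippocampi, ordered by group and replicate, with 1 marker shape per gene. Cebpz and Cebpg stood above the other members in 20 of 20 samples, and Cebpa and Cebpd crossed in 2 of 20.

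The part of the spread that counting noise could give differed between members and groups. Cebpb rested on 21 to 75 counts per library, and its coefficient of variation within a group was 14.2% to 23.8%, where counting alone gives 12.9% to 15.2%. Cebpd rested on 94 to 303 counts, with 10.1% to 24.5% against 6.2% to 7.88% from counting. Cebpa rested on 79 to 271 counts, with 13% to 26.6% against 6.71% to 7.41%. Cebpg (757 to 1706 counts) and Cebpz (1024 to 1941 counts) were steadier, at 1.43% to 7.75% and 4.15% to 15.2%. Counting alone gives 2.55% to 3.16% for Cebpg and 2.37% to 2.8% for Cebpz. In nPM males Cebpg, at 1.43%, was below the 2.55% from counting. The pooled SD within groups on the log2 scale was 0.081 for Cebpg, 0.131 for Cebpz, 0.27 for Cebpd, 0.274 for Cebpa and 0.321 for Cebpb.

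Cebpd, the acute-phase member, was higher in nPM males than in control males and overlapped between the female groups. In control males, its level was 3.505, 5.215, 6.055, 6.401 and 5.223 CPM in replicates 1 to 5. In nPM males, it was 7.581, 8.33, 8.801, 6.466 and 6.564 CPM. All 5 nPM males were above the highest control male, with a gap of 6.401 to 6.466 CPM at the closest point. Groups of males without overlap, in either direction, were seen for 1 of the 5 members and for 0.667% of all genes tested. Cebpd was selected on this contrast, so nothing is read from that count.

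In control females, Cebpd was at 4.93, 5.273, 5.553, 5.314 and 6.406 CPM. In nPM females, it was at 9.158, 8.013, 5.484, 6.187 and 5.352 CPM. Replicates 1 and 2 of the nPM females were above every control female, and the other 3 lay within the range of the controls. Of the members, 0 of 5 had female groups without overlap, against 0.364% of all genes.

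The mean level of Cebpd was 5.28 ± 1.12 CPM in control males and 7.548 ± 1.04 in nPM males (SD, n = 5), and 5.495 ± 0.556 against 6.839 ± 1.68 in the female groups. With sex as a covariate, limma-voom gave a log2 fold change of 0.41 (SE 0.118, 95% interval 0.17 to 0.66), or 1.33-fold. In males alone it was 0.51 (SE 0.16, interval 0.16 to 0.86), or 1.43-fold. In females alone it was 0.31 (SE 0.17, interval -0.06 to 0.68), or 1.24-fold. The effect in males minus that in females was 0.22 (SE 0.236, interval -0.27 to 0.71). Cebpd was selected on its nPM values, so these intervals are no test, and selection can make the fold changes too large. In bulk tissue, more cells of a type and more RNA per cell cannot be told apart.

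The largest pull of 1 library on Cebpd was in females, where the log2 fold change was 0.17 without nPM female 1 and 0.40 without nPM female 5. In males it ran from 0.39 without control male 1, the library with the lowest Cebpd, to 0.60 without control male 4. The library of nPM female 1 also had the highest level of the choroid plexus marker Ttr, 7409 CPM. With the choroid plexus markers as a covariate the value for both sexes was 0.40, with 0.54 among males and 0.25 among females. Without the libraries above 1000 CPM of those markers the value for both sexes was 0.37, with 0.60 among males and 0.25 among females. This left 2 males in either exposure, beside 5 female controls and 3 nPM females.

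**Figure D2:**
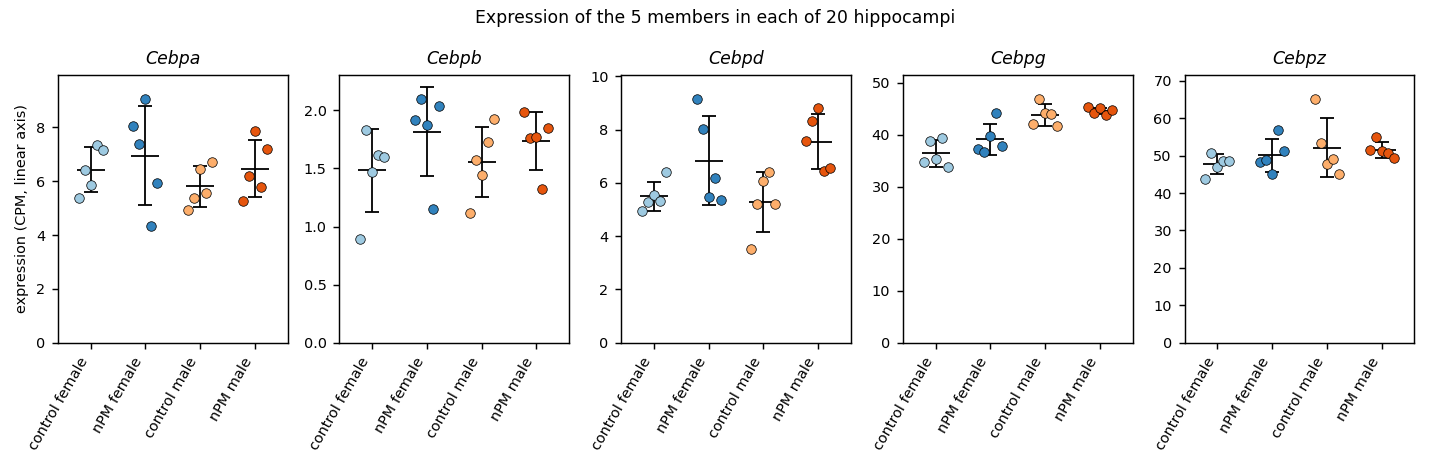
CPM (linear axis from 0) of each member in the 4 groups, with 1 point per mouse and the mean ± SD (n = 5). Cebpd was at 6.466 CPM or more in nPM males and at 6.401 or less in control males, and overlapped between the female groups. The other members overlapped between exposure groups in both sexes. Male groups without overlap were seen for 0.667% of all genes. Cebpd was selected on this contrast, so nothing is read from its separation.

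The other 4 members did not pass the test for nPM in any fit. At p under 0.005, the threshold of the study, 0 of 4 were called with both sexes, where 0.141% of all genes were. The count was also 0 of 4 among males (0.207% of all genes), among females (0.0909%) and for the interaction of sex and nPM (0.217%). At p under 0.05, 0 of 4 were called in each of these limma-voom fits, and also by the edgeR quasi-likelihood test and by DESeq2. Over all genes, 0 had an adjusted p under 0.05 in these 4 fits, with 416, 848, 393 and 751 genes at p under 0.05.

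Cebpb, the other cytokine-induced member, had the next largest difference in the fit over both sexes. Among females alone its fitted value was above that of Cebpd. Its levels in control females were 0.8963, 1.834, 1.466, 1.614 and 1.602 CPM, and in nPM females 1.918, 2.099, 1.874, 1.15 and 2.036 CPM. Of the nPM females, 4 of 5 were above every control female, and nPM female 4 was below all but 1 control. In control males it was at 1.119, 1.572, 1.44, 1.724 and 1.927 CPM, and in nPM males at 1.988, 1.762, 1.772, 1.326 and 1.845 CPM, with 1 of 5 nPM males above the controls. The log2 fold change was 0.24 with both sexes (n = 10 mice per exposure, SE 0.144, interval -0.06 to 0.54, p = 0.115, adjusted p = 1, limma-voom). It was 0.35 among females (interval -0.16 to 0.86, adjusted p = 1) and 0.14 among males (interval -0.26 to 0.55, adjusted p = 0.963). The upper bound for both sexes was 1.45-fold. Without control female 1, the library with the lowest Cebpb, the value for both sexes was 0.15 and that for females 0.18, and without control male 1 the value for males was 0.04.

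Cebpa, the myeloid member, varied most among nPM females. It was at 8.034, 7.393, 9.059, 4.326 and 5.943 CPM in nPM females and at 5.378, 6.419, 5.865, 7.345 and 7.162 CPM in control females. The nPM females thus held both the highest and the lowest values of all 20 mice. In males it was at 4.922, 5.358, 6.462, 5.565 and 6.731 CPM in controls and 5.275, 6.184, 7.871, 5.803 and 7.2 CPM after nPM. The log2 fold change was 0.13 with both sexes (n = 10 mice per exposure, SE 0.114, interval -0.11 to 0.36, p = 0.283, limma-voom).

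Cebpg, the dimer partner without a strong activation domain, differed little with nPM. Females averaged 36.4 ± 2.54 CPM as controls and 39.11 ± 3.03 after nPM, and males 43.79 ± 2.03 as controls and 44.57 ± 0.638 after nPM (SD, n = 5). The log2 fold change was 0.06 (n = 10 mice per exposure, SE 0.042, interval -0.03 to 0.15, p = 0.171, limma-voom), and the upper bound was 1.11-fold. Cebpz, the ribosome assembly protein, had means of 47.68 ± 2.65, 50.09 ± 4.38, 52.09 ± 7.92 and 51.55 ± 2.14 CPM in the same order of groups. Its log2 fold change was 0.03 (n = 10 mice per exposure, SE 0.058, interval -0.09 to 0.15, p = 0.594, limma-voom). Control male 1 held the highest Cebpz, 65.18 CPM, where the other 19 mice were at 43.63 to 56.83 CPM. It was also the mouse with the lowest Cebpd.

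Exact two-sided permutation tests within a sex, for which 5 mice against 5 can reach 0.00794, gave p from 0.151 to 0.968 over the 4 tested members in each sex. The interaction of sex and nPM was -0.19 for Cebpb (interval -0.80 to 0.41), 0.03 for Cebpa (-0.46 to 0.51), -0.07 for Cebpg (-0.25 to 0.11) and -0.07 for Cebpz (-0.31 to 0.18). All 4 intervals held 0.

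**Figure D3:**
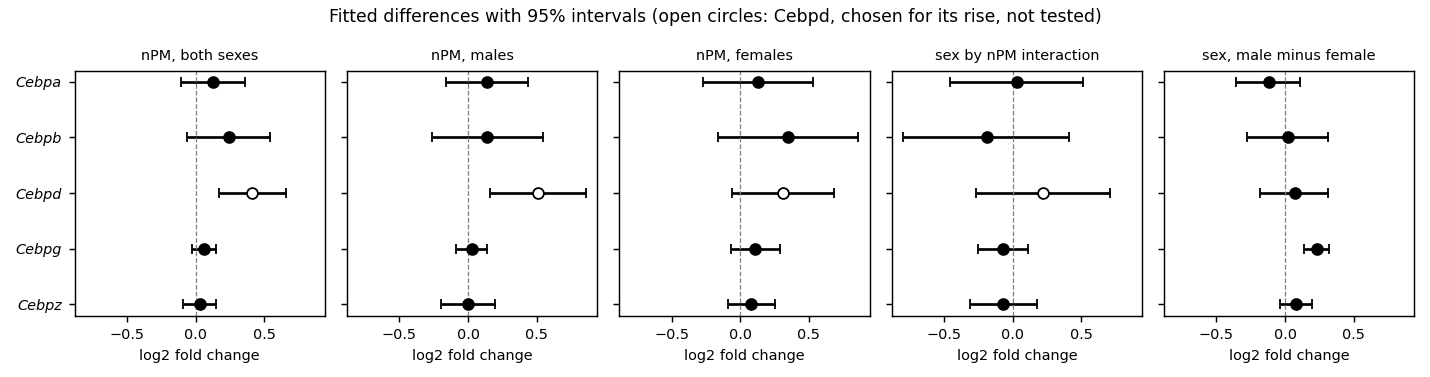
Log2 fold change of each member with its 95% interval in the 5 limma-voom fits: nPM over both sexes and within either sex, the interaction, and male minus female. Open circles mark the nPM values of Cebpd, which was selected on them, so their intervals are no test. Among the tested values, the interval for Cebpg in males minus females, 0.14 to 0.32, excluded 0 and all others held it.

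Cebpg was higher in males. In control females it was at 34.76, 38.78, 35.38, 39.4 and 33.68 CPM, and in control males at 42.14, 46.87, 44.16, 44.03 and 41.75 CPM. The control groups did not overlap, which was so for 1 of 5 members and for 19.8% of all genes. In nPM females it was at 37.26, 36.68, 39.71, 44.13 and 37.76 CPM, and in nPM males at 45.22, 44.18, 45.08, 43.69 and 44.68 CPM. Here nPM female 4 lay within the range of the males, and 0 of 5 members had nPM groups without overlap, against 11.1% of all genes. The difference of males minus females, with exposure as a covariate, was 0.23 on the log2 scale (n = 10 mice per sex, SE 0.043, interval 0.14 to 0.32, 1.17-fold, p = 2.15e-05, adjusted p = 0.000243, limma-voom).

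Cebpg was the 1 member of 5 past p under 0.005 for sex, against 31.1% of all genes, and past an adjusted p of 0.05, against 40.4%. A share of 1 in 5 is not above that background. With age as a further covariate, the difference in Cebpg was 0.27 (n = 10 mice per sex, SE 0.13, p = 0.0501), and over all genes the calls fell from 6147 to 84. The male minus female difference (n = 10 mice per sex) was 0.07 for Cebpd (interval -0.18 to 0.31, p = 0.586), -0.12 for Cebpa (-0.36 to 0.11, p = 0.285), 0.02 for Cebpb (-0.28 to 0.31, p = 0.914) and 0.08 for Cebpz (-0.04 to 0.20, p = 0.174).

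Genes around the C/EBPs were taken from 7 lists: other basic leucine zipper genes and Tribbles regulators, upstream cytokine signals, inflammatory targets, glucocorticoid-responsive genes, the integrated stress response, ribosome biogenesis, and immediate early genes. With both sexes, 0 genes of any list passed p under 0.005 for nPM by limma-voom. At p under 0.05, 5 of the 120 list genes tested were called (4.17%), against 2.1% of all genes. They were Cxcl10, Nr3c2, Tsc22d3, Sult1a1 and Plin4.

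Of the upstream signals, 21 of 24 genes were measured above the filter, and Il6, Il1b and Tnf were not. The measured genes had a median log2 fold change of 0.06 for nPM, with 17 of 21 above 0, where the median of all genes was -0.01. Among the most abundant, the kinases Jak1 and Jak2 were both at 0.01 and the receptor subunit Lifr at -0.14. Stat3 itself was at 0.09, and the receptor subunits Il6st and Il6ra were at 0.06 and 0.02 (n = 10 mice per exposure, p = 0.165, 0.338 and 0.895).

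Of the inflammatory targets, 11 of 22 passed the filter, with Lcn2, Saa3, Ccl2 and Hp among those that did not. With both sexes the median was 0.08, with 8 of 11 above 0. Among females it was 0.28, with 8 of 11 above 0. There, 3 of 11 were at p under 0.05, all higher after nPM, against 1.99% of all genes. Among males the median was 0.04, with 7 of 11 above 0 and 0 at p under 0.05, against 4.28% of all genes. The acute-phase inhibitor Serpina3n was at 0.08, the prostaglandin synthase Ptgs2 at -0.10 and the matrix protein Spp1 at -0.17 (n = 10 mice per exposure, p = 0.642, 0.516 and 0.615). Cxcl10, an interferon-induced chemokine, was at 1.45 (n = 10 mice per exposure, p = 0.00505, adjusted p = 1), from a low level of 0.102 RPKM.

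The glucocorticoid-responsive genes, a class in which Cebpd itself is often counted, leaned the other way from Cebpd. With both sexes 21 of 22 were lower after nPM and 1, the receptor gene Nr3c2, was higher, with a median of -0.11 where 53% of all genes were lower. In females 19 of 22 were lower, with a median of -0.16. In males 11 were higher and 11 lower. In females, 1 of 22 genes (4.55%) passed p under 0.005, against 0.0909% of all genes. This was Plin4, a lipid droplet protein, with a log2 fold change of -0.89 (adjusted p = 1). It was not past that threshold without control female 2, control female 3, nPM female 3, nPM female 4 or nPM female 5. In males it was at -0.09 (adjusted p = 0.987), and the interaction was 0.82 (adjusted p = 0.987), so a difference between the sexes was not called. The members of such a list vary together between mice, so the counts are a description. The list was also chosen with earlier results of these data known, so the call of Plin4 is a description too.

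The integrated stress response genes, in which Cebpg partners with Atf4, had 9 of 18 above 0 and a median of 0.00 for nPM. Atf4 was at -0.03 and Ddit3, another partner of C/EBPs, at -0.04. The amino acid synthesis genes Asns, Psat1 and Phgdh were at -0.04, -0.03 and -0.05. The ribosome biogenesis genes, relevant to Cebpz, had 9 of 21 above 0 and a median of -0.02, with Rrp1, Npm1 and Ncl at -0.05, -0.02 and -0.01. The immediate early genes had 6 of 15 above 0 and a median of -0.04, with Arc at 0.07, Egr1 at 0.03 and Nr4a1 at 0.06. The basic leucine zipper and Tribbles list had 6 of 12 above 0 and a median of -0.01.

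Between the sexes, the shares of the lists past p under 0.005 ran from 0 to 36.4%, against 31.1% of all genes. Beside Cebpg, the stress response list had 4 genes higher in males (Asns, Phgdh, Eif2s1 and Vldlr, 0.26 to 0.38) and 1 lower (Eif2ak4, -0.44). Atf4 and Ddit3 were higher in males, by 0.26 (adjusted p = 0.00582) and 0.30 (adjusted p = 0.00215), and so was Cebpzos, by 0.35 (adjusted p = 0.00442). Of the ribosome biogenesis genes, 5 of 21 were higher in males (Npm1, Mak16, Nop16, Rrp1 and Pes1) and Rrp1b was lower. Of the glucocorticoid-responsive genes, Nr3c1, the glucocorticoid receptor, was higher in males (0.44), and 7 of 22 were lower: Plin4, Hif3a, Cdkn1a, Zbtb16, Map3k6, Per1 and Fkbp5, by -0.37 to -1.32. Of the upstream signals, Creb1 was higher (0.35), and Cntfr, Tyk2 and Nfkb1 were lower (-0.61, -0.47 and -0.35). The only immediate early gene called was Egr3, at -0.57, and no inflammatory target was called. In all, 27 of 120 list genes were called for sex. With age as a further covariate 2 were, Cxcl10 and Icam1, and none of the 27.

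**Figure D4:**
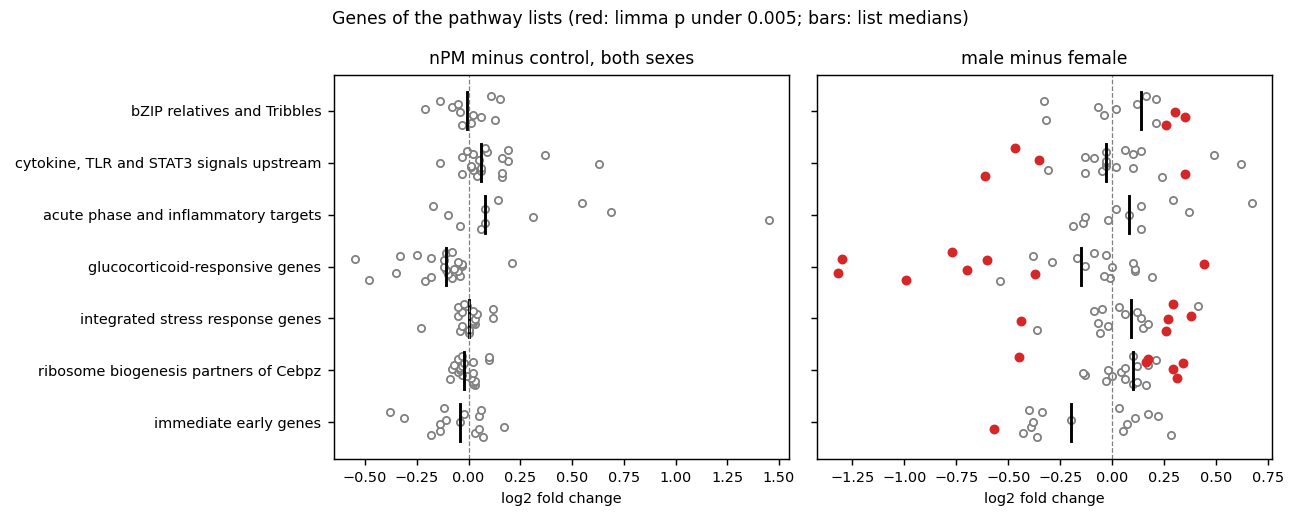
Log2 fold change of each measured gene of the 7 lists for nPM with both sexes (left) and for males minus females (right). Red points have p under 0.005 by limma-voom and black bars are list medians. On the left 0 genes are red, and 21 of 22 glucocorticoid-responsive genes lie below 0.

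Cell type markers were set beside Cebpd. All 12 of 12 microglia markers were above 0 for nPM with both sexes (median 0.08), and 0 passed p under 0.005. In males alone 8 of 12 were above 0 (median 0.03), and in females alone 12 of 12 (median 0.21). Their summed level was 268 to 329 CPM in control females, 239 to 399 in nPM females, 316 to 383 in control males and 350 to 396 in nPM males. The choroid plexus markers were above 0 for 7 of 10, with summed levels of 292 to 983, 277 to 14000, 247 to 11900 and 363 to 8780 CPM in the same order. In females 9 of 10 of them were higher after nPM (median 0.93) and in males 9 of 10 were lower (median -0.37). Oligodendrocyte markers were higher after nPM for 7 of 7 in males (median 0.21) and lower for 7 of 7 in females (median -0.09), with summed levels of 3470 to 4390, 2800 to 4260, 2300 to 4840 and 3670 to 5630 CPM in the order above. Endothelial markers were above 0 for 8 of 10 with both sexes (median 0.11) and summed to 208 to 237, 211 to 313, 157 to 196 and 161 to 192 CPM. At p under 0.05 by limma-voom, 2 of the 10 were called, against 2.1% of all genes. The microglia, neuron and astrocyte lists had 1 each, and none of these had an adjusted p under 0.05. No marker of any list was at 0 in every library, and the neutrophil list had 0 of 6 genes past the filter, with summed levels of 0.0942 to 4.22 CPM. The part of microglia, oligodendrocytes and endothelium in the level of Cebpd was not tested. For choroid plexus, the values of Cebpd with the covariate and without the rich libraries are given above.

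Correlations were computed between mice after the group means were taken out, so that a difference between groups could not produce them. Of 10 pairs of members, 0 had an adjusted p under 0.05 (100000 permutations of mice within groups, two-sided). The strongest pair was Cebpa and Cebpb, with Pearson's r of 0.60 (p = 0.0117, adjusted p = 0.0587) and Spearman's rho of 0.37 (permutation p = 0.131). Without control female 1 and nPM female 4, r was 0.31, so the relation rested on these mice. Within the sexes r was 0.69 in females and 0.39 in males. It was -0.21 and -0.13 without the 2 mice of a sex farthest from the median of Cebpb. Cebpa and Cebpz had r of -0.55 (p = 0.0117, adjusted p = 0.0587), rho of -0.45 (permutation p = 0.0602), -0.33 without control male 1 and nPM female 4, -0.59 in females and -0.60 in males. Without the 2 mice of a sex farthest from the median of Cebpz, r was 0.26 in females and -0.37 in males. Cebpd had r of 0.41 with Cebpb, 0.36 with Cebpa, -0.13 with Cebpg and -0.37 with Cebpz, with adjusted permutation p-values from 0.317 to 0.715.

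Against 9 marker lists, Cebpd had 0 relations with an adjusted p under 0.05 over the 20 mice. The largest were with oligodendrocyte markers (r = 0.51, rho = 0.30, adjusted permutation p = 0.567, and 0.17 without control male 1 and nPM female 4) and choroid plexus markers (r = 0.44, rho = 0.40, adjusted permutation p = 0.567, and 0.50 without control male 3 and nPM female 1). The value for choroid plexus was 0.42 in females and 0.47 in males. Without nPM female 1 the female value was -0.08, and without control male 1 the male value was 0.30. With microglia markers r was 0.22 (rho = 0.19, adjusted permutation p = 0.962), -0.01 in females and 0.93 in males.

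In the 10 males, the relation of Cebpd with microglia markers had a permutation p of 0.00213, adjusted to 0.0383 over 9 lists in each sex, and rho of 0.79 (permutation p = 0.016). It was 0.81 without the 2 males farthest from the median of the markers, and 0.87 to 0.96 with any 1 male left out. The values within each sex were tested after they had been seen, and the difference between the sexes was not tested. With oligodendrocyte markers r was 0.82 in males (adjusted permutation p = 0.283) and 0.25 without the 2 farthest males, so it rested on these.

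**Figure D5:**
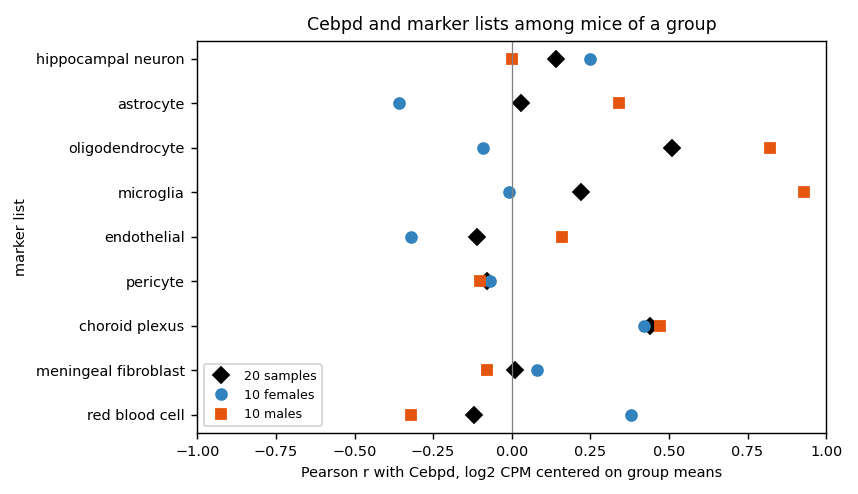
Pearson's r of Cebpd with the mean of each of 9 marker lists, on log2 CPM with group means taken out, over 20 mice (diamonds), 10 females (circles) and 10 males (squares). Microglia markers stood at 0.93 in males and -0.01 in females.

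The genes most like Cebpd between mice of a group were named by the size of r over the 20 samples, the highest of all genes tested, so r is a description. Spsb1, an adaptor of a ubiquitin ligase, came first with r of 0.91 (rho = 0.87), and 0.84 without the 2 mice farthest in Spsb1. Then came the secreted phospholipase Pla2g2f (0.85), the engulfment adaptor Elmo2 (0.84), the mitochondrial nucleotide carrier Slc25a33 (0.84), Gm19439 (0.83), the lysosomal sulfatase Galns (0.83), the integrin subunit Itgad (0.82), Gm21984 (0.81), the transcription elongation factor Aff1 (0.80) and the small nucleolar RNA Snord118 (0.79). For Cebpa they were Cnih2 (0.96), Cpt1c (0.93) and Selplg (0.93), and for Cebpb Zcchc24, Acaa1a and Dhx16 (0.84 to 0.85). For Cebpg they were Gtf3c4, Med13 and Fam210a (0.82 to 0.84), and for Cebpz Prpf4b, Nemf and Hspd1 (0.91 to 0.93).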

How the data were processed

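The authors depleted ribosomal RNA (RiboZero Gold), trimmed adapters where needed, used HISAT2 to align to mm10, and counted per Gencode M11 gene with featureCounts 1.5.0-p3. The deposited counts are whole numbers without normalization, and the deposited gene map gives gene lengths and the authors' mean RPKM per gene, which was used in no test. From the counts, genes were kept with filterByExpr (minimum count 10, minimum total 15 over the 4 groups), scaled by TMM in edgeR 4.0.16 and fitted with limma-voom (limma 3.58.1, R 4.3.3, offset 0.5). CPM and RPKM of the members use the TMM-scaled library sizes, and summed markers the totals. The fits were nPM with sex as covariate, nPM within each sex, the interaction, and sex with exposure as covariate. The thresholds were p under 0.005 and a Benjamini-Hochberg adjusted p under 0.05. The members and lists were chosen with earlier results of these data known. Named were all 5 members, list genes past p under 0.005 in a fit (otherwise the 3 with the highest RPKM), and the 10 genes most like Cebpd or 3 for each other member. Nr3c2, Tsc22d3, Sult1a1, Stat3, Il6st, Il6ra, Cxcl10, Atf4 and Ddit3 for nPM, Cxcl10 and Icam1 for sex with age, and list genes under the filter, were named after their values were seen. Intervals are 95%. Between mice of a group, squared differences were 14.1 to 76.7 times those of counting noise (40 pairs), so no library was a copy. Fits were tested on simulated data. Alternatives used edgeR, DESeq2 1.42.0, RLE scaling, no filter, sample weights, age, a replicate block, 1 fit of 4 groups, and leaving out each sample. Choroid plexus settings and correlations within a sex were added after the data were seen. Figures were drawn with matplotlib 3.10.9.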

Additional observations from a re-analysis of the deposited data

Results flagged for a closer look

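Of 20 sets of 5 values (5 members in 4 groups), 1 held a sample far from the others, as many as chance gives at about 1 in 20. Cebpb in nPM female 4 was at 1.15 CPM, where the nearest other nPM female was at 1.874 CPM, a gap of 0.763 of the group's range against a critical value of 0.71. That value rested on 21 counts, in the library with the fewest counts on genes (19092067).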

How the results depend on the processing

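In the settings run, 0 of 4 members tested passed p under 0.005 for nPM. The nPM difference in Cebpd, whose direction its selection largely fixes, was, with 1 sample left out, 0.34 to 0.46 for both sexes, 0.39 to 0.60 among males and 0.17 to 0.40 among females. The other settings gave 0.37 to 0.42, 0.46 to 0.60 and 0.25 to 0.35. The lowest p for Cebpb with 1 sample left out was 0.0445. Low counts limit Cebpb most.

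The number of list genes past p under 0.005 for nPM with both sexes, 0 as reported, was 1 with edgeR, DESeq2, age, the replicate block and the choroid plexus covariate (Cxcl10), 1 without the choroid-rich libraries (Plin4), 2 without a filter (Cxcl10 and Tnf), and 0 to 1 with 1 sample left out (1 without control male 2, nPM female 3, nPM female 4, nPM male 2 or nPM male 4). In females, the fall in Plin4 past that threshold was lost in 1 fit of the 4 groups and without control female 2, control female 3, nPM female 3, nPM female 4 or nPM female 5. Cxcl10 in females was not past it as reported. It passed with edgeR, DESeq2, sample weights, age, the replicate block and 1 fit of the 4 groups. The members past that threshold for sex fell from 1 to 0 with age as covariate, where the ages of the sexes do not overlap. Pairs of members with an adjusted permutation p under 0.05 were 0 to 1 with 1 sample left out, the 1 being Cebpa and Cebpz without control female 1 (r = -0.66) and Cebpa and Cebpb without nPM male 1 (r = 0.68).

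Over all genes, calls for nPM with both sexes numbered 28 as reported, 43 with DESeq2, 71 without a filter, 53 with sample weights and 10 without the choroid-rich libraries, and 17 to 47 with 1 sample left out. In males 41 became 113, 130, 51 and 23, and in females 18 became 55, 87, 44 and 29.

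Values that changed sign were all small. Cebpz in males was 0.01 without a filter and 0.04 with sample weights, and 0.00 with both sexes without the choroid-rich libraries. Cebpa in males was -0.03 without those libraries, and its interaction was -0.04 with sample weights. For sex, Cebpa was 0.01 and Cebpz -0.01 with age, and Cebpb was -0.02 with weights and -0.05 with the choroid plexus covariate. With 1 sample left out, Cebpz in males was -0.05 to 0.08, the interaction was -0.11 to 0.14 for Cebpa and -0.12 to 0.02 for Cebpz, and Cebpb for sex was -0.07 to 0.07. Correlations that changed sign were Cebpa and Cebpg (-0.41 to 0.18), Cebpb and Cebpg (-0.30 to 0.32), Cebpd and Cebpz (-0.51 to 0.08), and Cebpd with astrocyte (-0.09 to 0.15), endothelial (-0.20 to 0.12), neuron (-0.08 to 0.31), meningeal (-0.13 to 0.21), pericyte (-0.20 to 0.06) and red blood cell markers (-0.23 to 0.30). The cause of these changes was not tested.

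Replicate numbers did not pair the samples: same-numbered control and nPM mice correlated at -0.36 to 0.16. With a replicate block, Cebpd was 0.41 for both sexes, 0.50 among males and 0.33 among females, and all-gene calls with both sexes were 21.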
